A study of Mus musculus with 8 samples.

Results

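The mouse miRNAs mmu-miR-183, mmu-miR-96 and mmu-miR-182 were described here across 3 sorted cell populations of the mouse thymus. The members were the 3 rows, of 1040 mouse miRNAs in the deposited array table, that carry these names (written below without the species prefix), and each was matched to its probe on all 8 arrays. RNA came from 4-week old female NOD wildtype mice that received no treatment named in the labels, and each replicate was sorted from the pooled thymi of 10 to 12 animals. CD45+ cells were measured in 3 replicates, cortical thymic epithelial cells (cTECs) in 2 and medullary thymic epithelial cells (mTECs) in 3. The gates described for the study were EpCAM- CD45+ for the CD45+ cells, and CD45- EpCAM+ MHC II+ for the epithelium, with Ly51 present on cTECs and absent from mTECs. The array comparison was made to find miRNAs that differ between thymic epithelium and its blood-cell neighbours.

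The 3 miRNAs are cut from one primary transcript and are often named together as the miR-183 cluster. They are best known from sensory organs, where they are abundant in photoreceptors of the retina and in hair cells of the inner ear, and changes in the seed of miR-96 cause hearing loss in mice and humans. They are also found in other epithelia, and miR-182 is induced in activated helper T cells. mTECs are the thymic cells that display antigens of peripheral tissues to developing T cells, whereas cTECs support positive selection in the cortex.

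The mature sequences are shown because the members have nearly the same seed, the part that chiefly sets which targets a miRNA binds, and 2 of them are alike beyond it. They are given 5′ to 3′ from RefSeq (build GRCm38.p6), with the seed, bases 2 to 8, in capitals.
miR-183-5p: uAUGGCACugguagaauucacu
miR-96-5p: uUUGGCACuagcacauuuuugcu
miR-182-5p: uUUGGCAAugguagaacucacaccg

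The seeds of miR-183 and miR-96 differed by the substitution A2U, those of miR-96 and miR-182 by C8A, and those of miR-183 and miR-182 by A2U and C8A. Here the base of the first-named miRNA comes first, then the position counted from 1 at the 5′ end, then the base of the second. Past the seed the order of likeness was another. There miR-183 and miR-182 held the same base at 12 of 14 positions, whereas miR-96 matched miR-183 at 6 of 14 and miR-182 at 5 of 15. Over the whole sequence, seed included, these counts were 18 of 22, 13 of 22 and 12 of 23, and miR-183 and miR-182 shared the run ugguagaa. No other mouse probe of the table targets a miRNA with any of these 3 seeds. Among RefSeq mouse miRNAs, miR-1271-5p carries the seed of miR-96, and it was not measured by name here.

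The 3 mature sequences lie on the minus strand of chromosome 6, at chr6:30169711-30169732 for miR-183, chr6:30169506-30169528 for miR-96 and chr6:30165962-30165986 for miR-182. Their hairpins, of 70, 106 and 75 bases, are separated by 116 and 3453 bp and span 3820 bp. All 3 fall inside the long non-coding RNA gene Mirc35hg (chr6:30158640-30174125), the annotated host transcript. The deposited table, which names no build, places each of them 50000 bases lower.

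Each member had 1 probe, printed in 5 spots per array. The probe of each is complementary to the whole mature sequence (22, 23 and 25 bases), and is followed by a tail of 10 T. The longest run of bases that a member's target shared with the target of any of 1034 other mouse probes was 10 bases, between miR-183 and miR-470. Within the cluster the longest shared run was 8 bases, between miR-183 and miR-182. Cross-hybridization was not tested.

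All 3 members were detected on each mTEC array, and most of their spots stayed in the background on each CD45+ and cTEC array. A spot counts as detected when the scanner software marked it as well above background, and a miRNA counts as detected on an array when most of its spots were. On the mTEC arrays 15 of 15 spots were well above background for each of miR-183, miR-96 and miR-182. On the CD45+ arrays 0 of 15 spots were, for each member. On the cTEC arrays the counts were 0 of 9 spots for miR-183, where 1 outlier spot had been left out, 1 of 10 for miR-96 and 0 of 10 for miR-182. This pattern, every mTEC array and no other, was found for 17 of 1040 mouse miRNAs (1.63%), or 5.5% of the 309 that were detected on at least 2 arrays.

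The values behind these counts are background-subtracted processed signals, scaled so that the 75th percentile over 65 miRNAs detected on all 8 arrays was equal between arrays. They are intensities in arbitrary units and have no common scale between probes. For each array the lowest scaled signal of any detected mouse miRNA is taken as its detection limit. It was 114, 80.2 and 144 for CD45+ cells, 342 and 621 for cTECs, and 67.0, 223 and 97.9 for mTECs. Some undetected miRNAs lay above it, such as miR-7b at 658 and miR-145 at 631 on cTEC replicate 2. It is thus no strict bound, and folds given below as at least a value hold only as far as it does. The cTEC limits were the highest, and these arrays were the dimmest: their 75th percentile before scaling was 1364 to 2910, against 4213 to 11503 on the other 6.

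miR-182, which in other tissues represses FoxO transcription factors among its targets, had scaled signals of 1292, 1377 and 1505 on the mTEC arrays (mean 1391 ± 107, SD, n = 3). CD45+ cells gave 48.0, 58.9 and 45.7, and cTECs gave 176 and 264. All mTEC arrays lay above all others, and every CD45+ and cTEC value was below the limit of its own array. Taking for each dim array its limit in place of its signal, the mTEC level was at least 12.7-fold higher than in CD45+ cells. Against cTECs it was at least 3.01-fold higher. Sorted populations are compared per amount of RNA on an array, so that fewer cells with the miRNA and less of it per cell cannot be told apart.

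miR-183, the first hairpin of the transcript, had scaled signals of 524, 792 and 739 on the mTEC arrays (mean 685 ± 142, SD, n = 3). The CD45+ arrays gave 54.0, 43.9 and 64.3, and the cTEC arrays 189.7 and 415. All mTEC signals were above those of the CD45+ arrays and their limits. Against cTECs the separation was weaker, since cTEC replicate 2 was not measured below its limit of 621 and mTEC replicate 1 lay under that value. The mTEC level was at least 6.15-fold higher than in CD45+ cells and at least 1.46-fold higher than in cTECs.

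miR-96, the member whose seed is mutated in inherited deafness, had scaled signals of 674, 596 and 592 on the mTEC arrays (mean 621 ± 46.1, SD, n = 3). For CD45+ cells the signals were 39.4, 60.6 and 66.4, and for cTECs 124 and 485. All mTEC signals were above those of the CD45+ arrays and their limits. cTEC replicate 2, with 1 of its 5 spots well above background, was not measured below its limit of 621, and mTEC replicates 2 and 3 lay under that value. The mTEC level was at least 5.65-fold higher than in CD45+ cells and at least 1.34-fold higher than in cTECs.

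**Figure D1:**
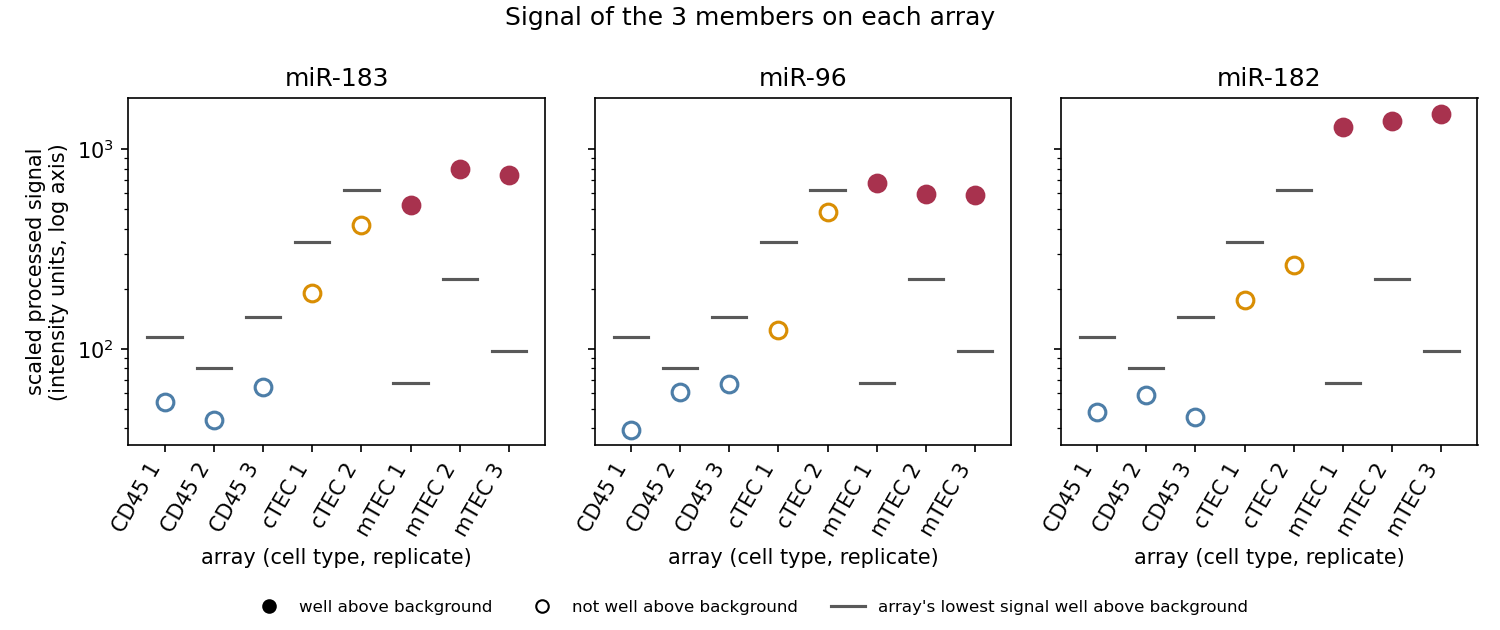
Scaled processed signal (intensity units, log axis) of miR-183, miR-96 and miR-182 on each of the 8 arrays, with filled points where most spots were well above background, open points where they were not, and a grey bar at the lowest signal well above background on that array. The 3 mTEC points are filled and all CD45+ and cTEC points are open and lie under their bars. The bar of cTEC replicate 2, at 621, lies above 1 mTEC point of miR-183 and 2 of miR-96.

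The lower limits of the fold depend on the scaling. With no scaling between arrays, the limits over CD45+ cells were 4.16 for miR-183, 3.82 for miR-96 and 8.56 for miR-182, and those over cTECs were 4.97, 4.57 and 10.2. With the 75th percentile taken over all mouse probes they were 3.43, 3.16 and 7.07 over CD45+ cells, and 2.99, 2.75 and 6.16 over cTECs. Leaving out each array in turn gave limits over CD45+ cells of 5.26 to 7.06 for miR-183, 4.83 to 6.49 for miR-96 and 10.8 to 14.5 for miR-182. Without cTEC replicate 1, which leaves the dimmer cTEC array alone, the limits over cTECs were 1.09 for miR-183 and 2.24 for miR-182, and there was none above 1 for miR-96.

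The level in mTECs was above that in CD45+ cells for all 3 members, array by array. Above cTECs it was so in scaled signal for miR-182 on each array, whereas 1 mTEC array of miR-183 and 2 of miR-96 were not resolved from cTEC replicate 2. The order of cTECs and CD45+ cells was not resolved. Before scaling, the signals of the members ran from 62.3 to 115 in cTECs and from 65.9 to 120 in CD45+ cells, and these ranges overlapped. On the mTEC arrays the unscaled signals were 435 to 2574. The higher scaled values of the cTEC arrays come with their larger scaling factors.

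The deposited log2 intensities, which the authors had quantile normalized and which rank the miRNAs as the spot signals without background subtraction do, gave the same separation for these 3 miRNAs. For miR-182 they were 11.99, 12.00 and 12.13 on the mTEC arrays and 11.28 to 11.38 on the other 5. For miR-183 they were 11.63, 11.66 and 11.66 against 11.28 to 11.36, and for miR-96 they were 11.70, 11.47 and 11.68 against 11.31 to 11.38. The lowest mTEC array was above the highest of the other arrays for 3 of 3 members, and for 47 of all 1040 mouse miRNAs (4.52%) or 36 of the 309 tested (11.7%). miR-96 on mTEC replicate 2 was the closest to the rest. Background was not subtracted from these values, and their differences are not comparable in size with the limits of the fold.

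**Figure D2:**
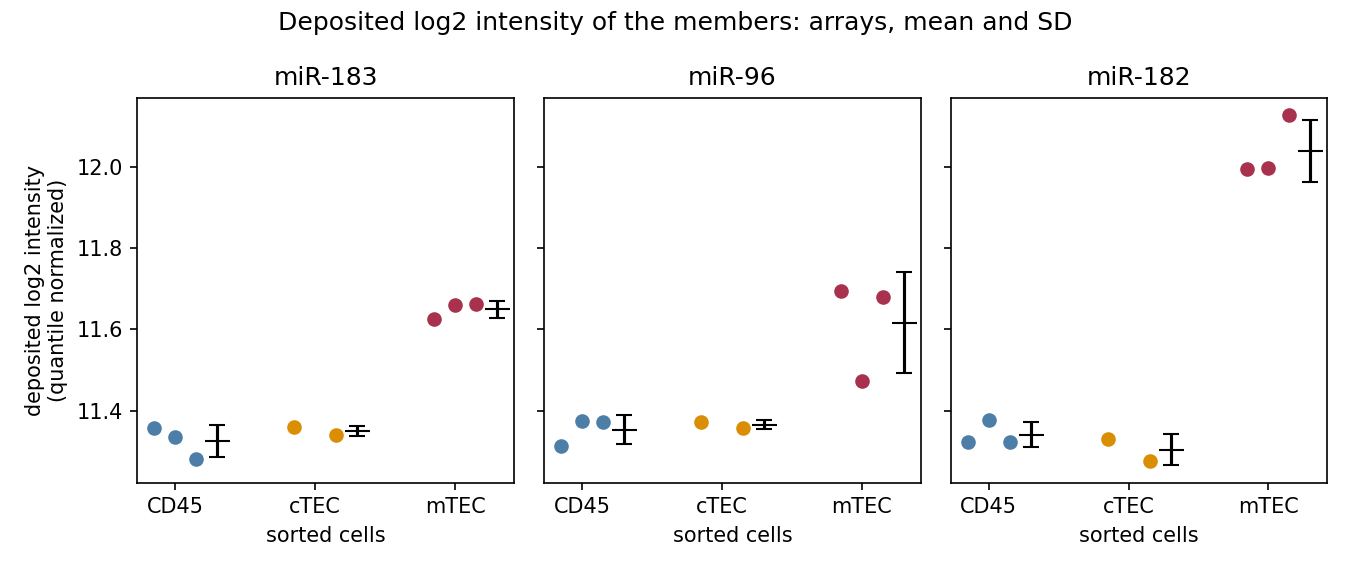
Deposited quantile normalized log2 intensity of miR-183, miR-96 and miR-182 in CD45+ cells (3 arrays), cTECs (2) and mTECs (3), with the mean and SD of each group as a bar to the right of its points. The mTEC points lie above all others in each panel, and mTEC replicate 2 of miR-96, at 11.47, is nearest to them.

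In the test across all 309 miRNAs, miR-182 rose in mTECs against both other populations, and the other 2 members did not pass. The test was limma on log2 signals, in which every scaled spot signal under a floor of 621.0 (9.28 on the log2 scale), the limit of the dimmest array, was set to that floor. The fitted log2 fold change of miR-182 was 1.15 (SE 0.06) against CD45+ cells, with a limma adjusted p of 2.19e-05, and 1.15 (SE 0.06) against cTECs, with a limma adjusted p of 6.07e-05. Against CD45+ cells 1 of 3 members was called higher, where 9.06% of all tested miRNAs were, and against cTECs 1 of 3, where 16.2% were. miR-182 entered the 309 only through the mTEC arrays, on which it was high. With no filter on dim probes it kept both calls among 1040 miRNAs (limma adjusted p 0.000103 and 0.000278), where 2.5% were called higher against CD45+ cells and 3.56% against cTECs. These fitted values are not estimates of the fold, since both comparison groups lay at the floor. Each of their arrays held the floor value, so the spread of miR-182 within groups came from the mTEC arrays alone. The SE and limma adjusted p therefore leave out how CD45+ and cTEC arrays differ among themselves. The same applies to any fit here with a group at the floor.

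For miR-183 the limma fit gave 0.20 (SE 0.09, adjusted p 0.211) against CD45+ cells and 0.20 (SE 0.10, adjusted p 0.307) against cTECs. For miR-96 it gave 0.06 (SE 0.03, adjusted p 0.345) and 0.04 (SE 0.03, adjusted p 0.530). The mean scaled signal was above the floor on 2 mTEC arrays for miR-183, on 1 for miR-96 and on 3 for miR-182. mTEC replicate 1, with the lowest signal of miR-183, decided its call: without it the fit gave 0.30 against both populations, with limma adjusted p of 0.00275 against CD45+ cells and 0.00477 against cTECs.

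The floor is set by cTEC replicate 2, an array of neither group in the comparison of mTECs with CD45+ cells, although it shares the scaling, the filter and the estimate of the spread. With the floor taken from the CD45+ and mTEC arrays alone (223, an alternative chosen after seeing the data), the log2 fold change against CD45+ cells was 1.59 for miR-183 (limma adjusted p 0.00149), 1.47 for miR-96 (limma adjusted p 0.00245) and 2.63 for miR-182. All 3 members were then called higher, where 15.5% of all tested miRNAs were. The members passed the filter on dim probes only through the mTEC arrays, the group in which they were high. With the same floor and no filter, an alternative also added after seeing the data, 3 of 3 were called among 1040 miRNAs, where 3.94% were called higher, with limma adjusted p of 0.00921 for miR-183, 0.0149 for miR-96 and 1.64e-05 for miR-182. Floors of 342, 129 and 67.0 likewise gave 3 of 3 calls against CD45+ cells, with 13.6%, 17.8% and 24.6% of all tested miRNAs called higher. At these 3 floors the fit against CD45+ cells ran from 0.97 to 3.23 for miR-183, from 0.85 to 3.12 for miR-96 and from 2.01 to 4.29 for miR-182. With no filter on dim probes 3 of 3 were called at each, where 3.27%, 4.71% and 5.77% of 1040 miRNAs were. Down to the floor of 129, 0 of 15 CD45+ spots of each member lay above the floor, so that the fitted value follows the floor chosen. At 67.0, below the limits of all 3 CD45+ arrays, 4 of 15 such spots did for miR-183, 4 for miR-96 and 5 for miR-182, none of them well above background. None of these fitted values is a measured fold.

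The same 3 floors gave 3 of 3 calls for mTECs against cTECs, where 19.7%, 22.7% and 23.3% of all tested miRNAs were called higher. There the fit was 0.83 to 1.31 for miR-183, 0.59 to 1.43 for miR-96 and 2.01 to 2.73 for miR-182. With no filter on dim probes miR-182 alone kept its call against cTECs, where 4.23%, 5.67% and 6.25% of 1040 miRNAs were called higher. The limma adjusted p then ran from 0.0552 to 0.0688 for miR-183 and from 0.0939 to 0.121 for miR-96. The cTEC signals that entered these fits were not well above background, apart from 1 spot of miR-96: at the floor of 342, 3 of 9 cTEC spots of miR-183, 4 of 10 of miR-96 and 0 of 10 of miR-182 lay above the floor, and at 129 these counts were 8, 8 and 9.

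For cTECs against CD45+ cells, 0 of 3 members were called at the floor of 621.0, where limma called 10.7% of all tested miRNAs higher. The fitted log2 fold change was 0 for miR-183 and miR-182 and 0.02 for miR-96 (SE 0.03), each with a limma adjusted p of 1, and 0 of the 3 had an unadjusted p under 0.05. At the floor of 129, miR-183 (1.10) and miR-182 (0.70) were called higher, where 38.5% of all tested miRNAs were. At the floor of 67.0 all 3 were called (1.57 to 1.92), where 45% were. These calls rest on cTEC signals under the limits of their own arrays.

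**Figure D3:**
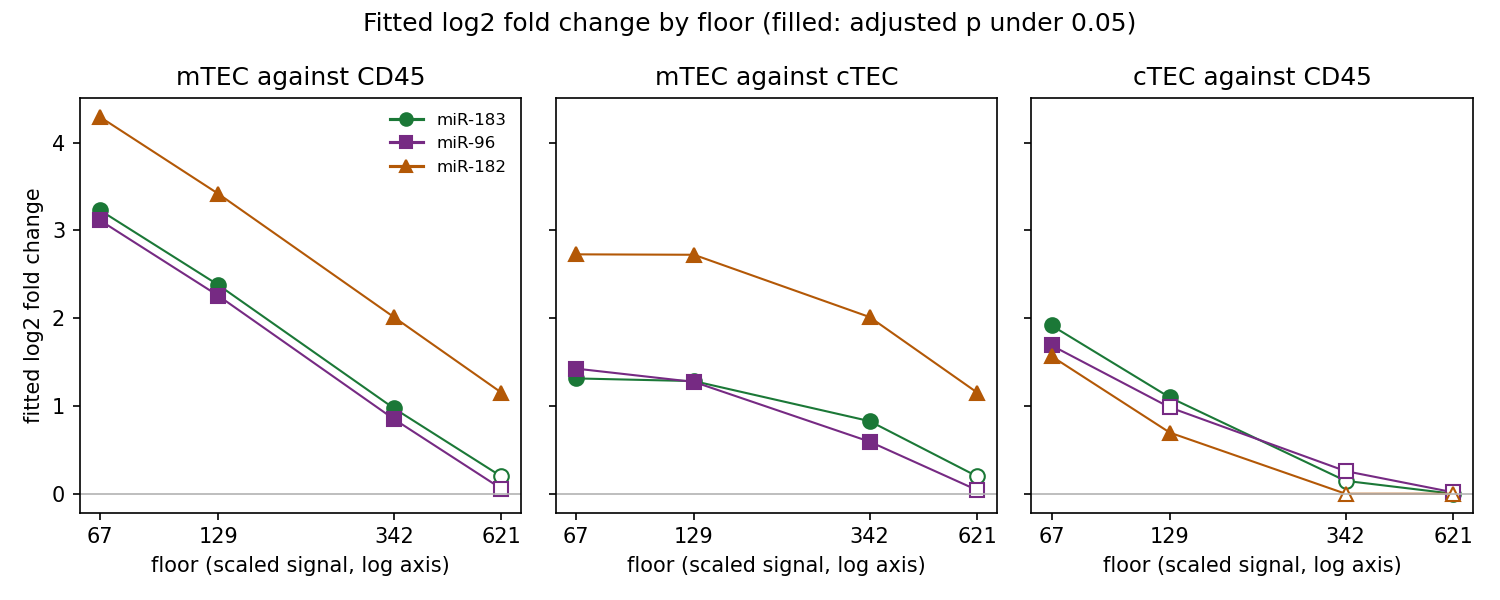
Fitted log2 fold change of miR-183, miR-96 and miR-182 in the 3 comparisons at 4 floors (scaled signal, log axis: 67.0, 129, 342 and 621.0), filled where the limma adjusted p was under 0.05. In mTECs against CD45+ cells all 3 members are filled at the 3 lower floors and miR-182 alone at 621.0, and the values rise as the floor falls.

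Within the mTEC arrays the ratios between members varied. The signal of miR-183 over that of miR-96 was 0.778, 1.33 and 1.25 on the mTEC arrays, and the highest was 1.71 times the lowest. The SE of a ratio from its spots was 5.01% to 7.81%, which covers the spread of spots within 1 array and not that between pools of mice or hybridizations. mTEC replicate 1 had the lowest of the 3 ratios, and whether it differs from the others was not tested. The ratio of miR-183 to miR-182 was 0.406, 0.575 and 0.491, and that of miR-96 to miR-182 was 0.522, 0.433 and 0.394. A ratio between 2 probes says how they changed between arrays and not which miRNA was more abundant.

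The opposite strands of the 3 hairpins, the partners usually discarded when the duplex is loaded into Argonaute, were also on the array. miR-183* was detected on mTEC replicates 1 and 3, with all 5 spots on each, and on no other array. Its scaled signals on the mTEC arrays were 118.6, 173 and 181, against 23.0 to 36.1 in CD45+ cells and 77.5 and 432 in cTECs. mTEC replicate 2 had a signal in the same range but a limit of 223. No limit of its fold is given, since mTEC replicate 2 did not measure it. At the floor of 621.0 its fitted log2 fold change was 0 (limma adjusted p 1). miR-96* and miR-182* were detected on 0 of 8 arrays.

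Markers of other cells were followed beside the members, as lists chosen with earlier results of these data known. Of 8 epithelial miRNAs (the miR-200 family, which keeps epithelial cells from turning mesenchymal, with miR-205, miR-203 and miR-31), 7 were detected on every mTEC array and 3 on every cTEC array. Of these 8, 7 rose in mTECs against CD45+ cells (9.06% of all tested miRNAs did) and 0 fell, with a median fitted log2 fold change of 2.69 where that of all tested miRNAs was 0. Against cTECs 7 of 8 rose (16.2% of all tested did), with a median of 2.54. With no filter on dim probes miR-205 lost its call against cTECs (limma adjusted p 0.0710), where 3.56% of 1040 miRNAs were called higher. miR-203 and miR-429, tested only because of the mTEC arrays, kept theirs (limma adjusted p 3.59e-05 and 0.000266). With dim arrays at their limits, the median fold was 36.6 over CD45+ cells and 5.88 over cTECs, where 4 of the 8 were detected on no CD45+ array and 3 on no cTEC array. With no scaling these medians were 24.8 and 20.0, and with the percentile over all mouse probes 20.5 and 12.0. cTECs had 1 of 8 called higher than CD45+ cells, close to the 10.7% of all tested miRNAs.

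Like the 3 members, 2 of the epithelial miRNAs were detected on every mTEC array and no other. miR-203, which promotes differentiation of squamous epithelium, was at least 35.9-fold higher in mTECs than in CD45+ cells and at least 7.83-fold higher than in cTECs. miR-429, of the miR-200 family, was at least 19.5-fold and at least 4.64-fold higher. The other miR-200 miRNAs and miR-205 were also detected on 1 or 2 cTEC arrays or on some CD45+ arrays. With no scaling, and with the percentile over all mouse probes, the limits were 24.2 and 20.0 for miR-203 and 13.2 and 10.9 for miR-429 over CD45+ cells, and 26.6 and 16.0, and 15.8 and 9.50, over cTECs. miR-31 went the other way, with 570.2, 668 and 617 on the CD45+ arrays, all detected, and 238, 213 and 253 on the mTEC arrays, of which 2 were detected. The geometric mean of the mTEC signals, that of the undetected replicate 2 included, was 0.379 times that of CD45+ cells. With no scaling it was 0.256 times, and with the percentile over all mouse probes 0.212 times. The fit, with most of these signals under the floor of 621.0, gave a log2 fold change of -0.06 (limma adjusted p 0.306).

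Of 9 miRNAs known from sensory or neural tissue, 6 were tested, and in mTECs against CD45+ cells 1 rose and 1 fell, where 9.06% and 14.9% of all tested miRNAs did. The one that rose was miR-375, a miRNA of endocrine and neuroendocrine cells, with scaled signals of 1816, 1852 and 1745 on the mTEC arrays and at most 39.1 on the CD45+ arrays. It had the pattern of the members, detected on every mTEC array and no other, and its fitted log2 fold change was 1.54 (SE 0.03, limma adjusted p 5.39e-07). It too was tested only because of the mTEC arrays, and with no filter on dim probes the limma adjusted p was 1.36e-06. Its CD45+ and cTEC arrays all lay at the floor as well, so its SE and limma adjusted p hold no spread of those groups. miR-128, an abundant brain miRNA, fell by 2.12 on the log2 scale (SE 0.11, limma adjusted p 2.81e-05) and was detected on every CD45+ array. The median over the 6 tested was 0, equal to that of all tested miRNAs. miR-9, whose host genes are neural, was detected on mTEC replicates 1 and 3 and on no other array.

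**Figure D4:**
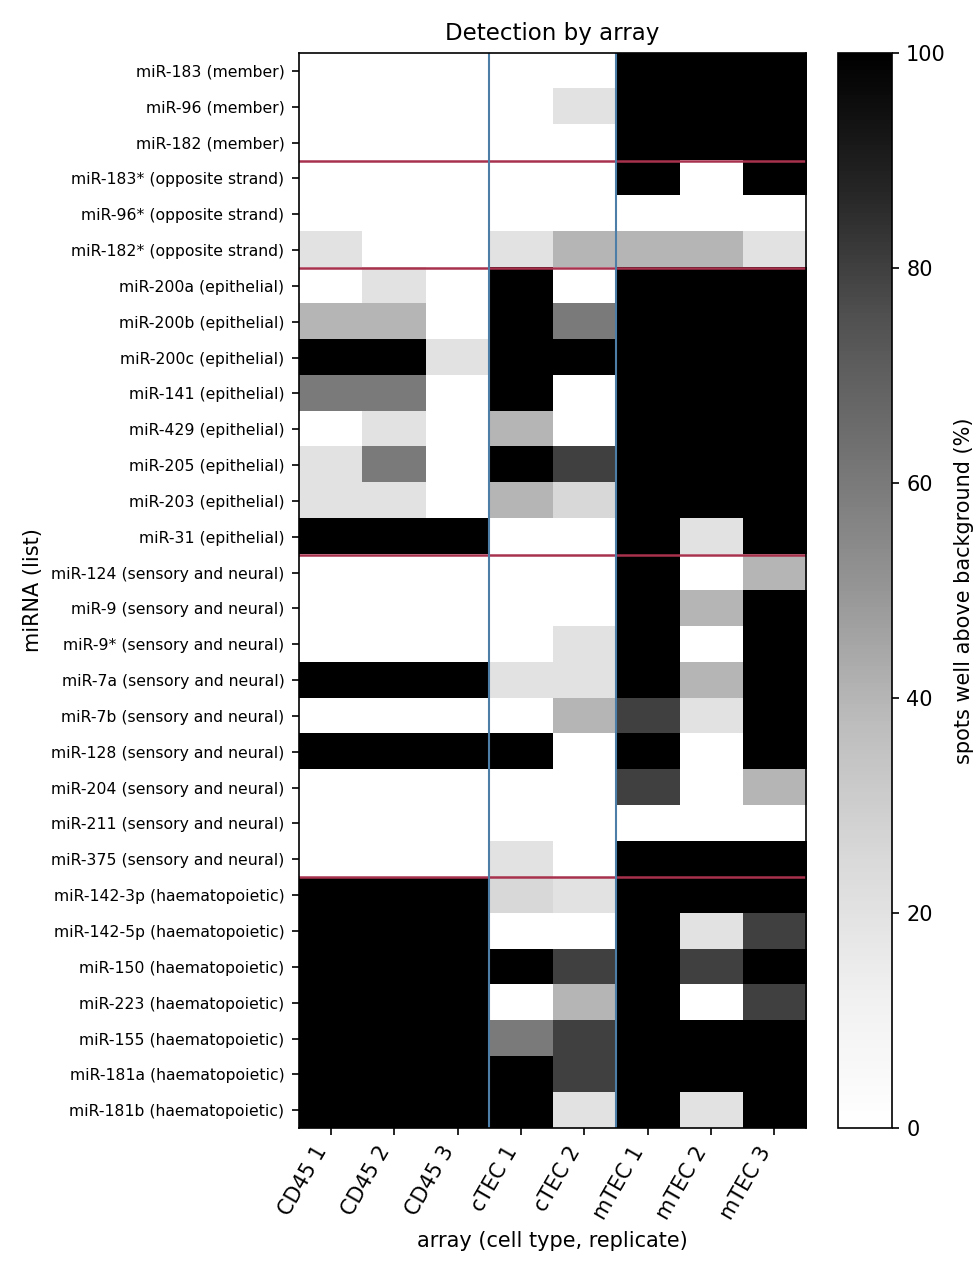
Percent of the spots of each miRNA that were well above background (white 0, black 100) on each of the 8 arrays, for the 3 members, their opposite strands, and the epithelial, sensory and neural, and haematopoietic lists. The 3 members are black on all 3 mTEC arrays and white elsewhere, except for 1 of 5 spots of miR-96 on cTEC replicate 2.

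The haematopoietic list had its highest sum in CD45+ cells, where miR-181a alone had scaled signals of 12428 to 13724. Such a sum weighs the brightest probe most, as probes have no common scale. All 7 listed (both strands of miR-142, miR-181a and miR-181b, miR-150, miR-155 and miR-223) were detected on every CD45+ array, where 0 of 15 spots of each member were, and 6 of 7 fell in mTECs against CD45+ cells, where 14.9% of all tested miRNAs did. Against cTECs 1 of 7 rose in mTECs and 0 fell, where 16.2% of all tested miRNAs rose. The 1 was miR-155, which is induced on immune activation. Its log2 fold change was 1.22 (SE 0.26, limma adjusted p 0.0190), in the direction of miR-182. With no filter on dim probes this call was lost at the same fitted value (limma adjusted p 0.0772). The summed scaled signal of the 7 was 26834 to 31039 in CD45+ cells, 4700 to 5998 in cTECs and 3508 to 4852 in mTECs, where 4 of 7 were still detected on every array.

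Other non-epithelial lists moved with the members in part. The sums given include signals under the limits of their arrays, which on the cTEC arrays are scaled up from background. The 5 mesenchymal miRNAs (miR-143, miR-145, miR-199a-3p, miR-199a-5p and miR-214) summed to 189 to 301 in CD45+ cells, 2232 to 5117 in cTECs and 6294 to 6660 in mTECs. On every mTEC array 2 of the 5 were detected and 2 on none. Of the 3 tested, 2 rose in mTECs against CD45+ cells, where 9.06% of all tested miRNAs did. Against cTECs 1 of the 3 rose, where 16.2% of all tested did. It was miR-145, with a log2 fold change of 1.80 (limma adjusted p 0.000167, and 0.000834 with no filter on dim probes). The 2 endothelial miRNAs summed to 212 to 295 in CD45+ cells, 1527 to 2755 in cTECs and 497 to 550 in mTECs. The 1 tested, miR-126-3p, went the other way from the members. It was lower in mTECs than in cTECs (log2 -1.38, limma adjusted p 0.0421, and 0.166 with no filter on dim probes), where 20 of 309 tested miRNAs were called lower. In cTECs it was higher than in CD45+ cells (1.38, limma adjusted p 0.0335), where 10.7% of all tested were. The 2 erythroid miRNAs were not tested. The part of these cells in the signal of the members was not tested.

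The miRNAs whose log2 signal was most like that of a member were ranked by Pearson's r over the 8 arrays, among 223 tested miRNAs that were not constant at the floor or members. As most arrays lie at the floor, r for miR-182 mainly describes the step between mTECs and the rest. For miR-183 it describes mTEC replicates 2 and 3 alone, since mTEC replicate 1 lay at the floor. For miR-182 the first 5 were miR-203 (0.999), miR-194 (0.996), miR-148a (0.995), miR-375 (0.993) and miR-200a (0.985). For miR-183, whose mean scaled signal was above the floor on 2 arrays, they were miR-149 (0.979), miR-125a-5p (0.846), miR-148a (0.830), miR-466j and miR-195 (both 0.787). miR-466j and miR-195 were each detected on 2 mTEC arrays, and their mean mTEC signals, 249 and 237, were under the floor. miR-96, whose mean scaled signal was above the floor on 1 array, was not ranked. Of these, miR-203 and miR-375 were detected on every mTEC array and no other, whereas miR-148a was also detected on 3 other arrays.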

How the data were processed

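Cy3-labelled RNA of 8 samples was hybridized to 8 single-color arrays of 1 slide. The authors deposited scanner intensity values (Feature Extraction 10.7.3.1 per the file headers, limma per the labels' processing notes) and a table of quantile normalized log2 values. That deposited table also holds the authors' own fold changes or ratios, p-values and log odds scores, which were not used. Feature outlier spots (1.09% to 1.85%) were removed. For scaling, the 75th percentile over 65 mouse miRNAs detected (well above background) on all 8 arrays was made equal, spots under 621.0 were set to that floor, and spots were averaged in log2. In R 4.3.3 with limma 3.58.1, one model of the 3 group means (lmFit, eBayes, 5 residual degrees of freedom) was fitted to the 309 miRNAs detected on at least 2 arrays, with Benjamini-Hochberg adjustment and a threshold of 0.05. The 83 at the floor throughout entered the adjustment as not different. Replicates correlated at r of 0.966 to 0.996. Arrays had 98 to 325 mouse miRNAs well above background, and their number limits the precision. The fit was also tried on simulated data, with no outcome given here, and no result rests on it. Named were the members, their opposite strands, miRNAs sharing a seed, the 5 most alike to each member above the floor on at least 2 arrays, and the lists. Members and lists were chosen with earlier results of these data known. RefSeq matched 3 of 3 members and 3 of 3 opposite strands.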

Additional observations from a re-analysis of the deposited data

How the results depend on the processing

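The call of miR-182 in mTECs held in 20 of 20 alternatives against CD45+ cells (log2 0.70 to 4.29) and 18 of 18 against cTECs (0.73 to 2.96), and in no alternative did a called value change sign. For miR-183, calls against CD45+ cells and cTECs were gained with the percentile over all mouse probes (1.31 and 1.31), quantile normalization (0.78 and 0.78), no normalization (1.92 and 1.92), the deposited table (0.32 and 0.30), normexp (1.54 and 1.40) and floors of 342 (0.97 and 0.83), 129 (2.38 and 1.28) and 67.0 (3.23 and 1.31). For miR-96 they were gained with no normalization (1.79 and 1.79), the deposited table (0.26 and 0.25), normexp (1.33 and 1.32) and the same floors (0.85 and 0.59, 2.26 and 1.27, 3.12 and 1.43). The floor of 223, added after seeing the data, gave 1.59 and 1.47 against CD45+ cells, with and without the filter on dim probes. With no filter the lower floors, also added later, kept the calls of miR-183 and miR-96 against CD45+ cells and gave none against cTECs. For cTECs against CD45+ cells, calls were gained at the floor of 129 for miR-183 (1.10) and miR-182 (0.70), and at 67.0 for miR-183 (1.92), miR-96 (1.69) and miR-182 (1.57). Leaving out each array gave miR-183 values of 0.12 to 0.30, called in both mTEC comparisons without mTEC replicate 1.

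The count of all miRNAs called, 74 for mTECs against CD45+ cells, was 121 with the deposited table, 128 with normexp, 115 and 140 at floors of 129 and 67.0, and 31 for miRNAs detected on all 8 arrays, where no member was tested. That of cTECs against CD45+ cells, 95, became 169 with normexp, 200 and 224 at those floors and 53 with that filter. That of mTECs against cTECs, 70, became 39 with the percentile over all probes, 119 with normexp, 130 and 129 at those floors (113 and 166 with no filter on dim probes) and 38 with that filter. Without cTEC replicate 1 the last 2 counts were 170 and 147. The ranges over all arrays left out were 67 to 75 for mTECs against CD45+ cells, 82 to 170 for cTECs against CD45+ cells and 58 to 147 for mTECs against cTECs. The split into higher and lower calls moved with the scaling. For mTECs against cTECs it was 50 and 20, and became 38 and 1 with the percentile over all probes, 73 and 0 with no normalization, 37 and 45 with quantile normalization and 47 and 100 without cTEC replicate 1. For cTECs against CD45+ cells it was 33 and 62, and became 6 and 114, 2 and 111, 55 and 74, and 110 and 60 in the same order. For mTECs against CD45+ cells it was 28 and 46, and 18 and 92 with the percentile over all probes.

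With the replicate number as a block, miR-182 kept its calls (1.15 and 1.12, limma adjusted p 0.000705 and 0.00184), miR-183 (0.20 and 0.19) and miR-96 (0.06 and 0.05) stayed uncalled, and 69, 86 and 60 miRNAs were called. Same-numbered arrays had deviations correlated at r of -0.23 to 0.28. With so few arrays per group, these values cannot decide whether the numbers pair the samples. Relative to the 65 miRNAs detected throughout, whose median moved from 0.02 to -0.50 (mTECs against CD45+ cells) and from -0.25 to 0.56 (mTECs against cTECs) with the percentile over all probes, miR-182 stayed higher in mTECs. The dim cTEC arrays limit what can be said of cTECs: signals of the members under 342 and 621 could not be measured there. The cause of the other changes was not tested.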

Other observations

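The 17 miRNAs detected on every mTEC array and no other, a selection made after the values were seen, held 11 that were neither members nor on any list. Among these were miR-34b-5p, miR-34c, miR-449a and miR-449c, which have closely related seeds and are known from ciliated epithelium. Others were miR-192 and miR-215, which are known from gut epithelium, and miR-455, miR-467h, miR-672, miR-1249 and miR-3102-5p.2. The mean mTEC signal was above both cTEC limits, 342 and 621, for miR-449a alone (646). For miR-192 (465) and miR-455 (348) it lay between these limits. For the rest of the 11, at 179 to 311, it lay under both. Where the mTEC signal lay under a cTEC limit, not being detected on that array does not show a lower level in cTECs.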
